A study of Mus musculus with 10 samples.

Results

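The 32 genes described here carry glucose into cells, break it down to pyruvate and lactate, export the lactate, and regulate these steps. They were chosen by symbol for the functions of their products. Of them, 28 had a probe set annotated to their symbol, out of 19505 genes with such a probe set, and each was represented by a single probe set. Gpi1, Pfkfb1, Pfkfb2 and Eno1 had none under these symbols and were not analysed here. All 28 passed the filter on dim genes and entered the tests of 13393 genes.

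RNA was hybridised to 10 single-colour Affymetrix arrays. CD4+ T cells of strain C57BL/10 and wild-type genotype, transduced with oncogenic Vav1 or with GFP, had been placed in immunocompromised mice, and spleen and lymph node were examined 6 months later. Oncogenic Vav1 animals gave 4 spleen arrays and 2 lymph node arrays, and GFP animals gave 2 spleen arrays and 2 lymph node arrays. The 10 arrays came from 7 animals, of which 3 gave both tissues: oncogenic Vav1 spleen replicate 2 and lymph node replicate 1 share an animal, as do oncogenic Vav1 spleen replicate 3 and lymph node replicate 2, and GFP spleen replicate 1 and lymph node replicate 2. The labels do not give the mutation, the immune defect of the hosts or how the cells were isolated from the tissue, so transferred and host cells cannot be told apart. Values are log2 expression as deposited, and a change is the mean of the oncogenic Vav1 arrays minus that of the GFP arrays.

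The samples are labelled as CD4+ T cells, and Cd3e, a chain of the T cell receptor complex, lay between 8.50 and 10.60 on all arrays. Transcripts of other cells were also present. The B cell receptor chain Cd79a lay between 10.02 and 11.92, the CD8 chain Cd8b1 between 8.80 and 10.85 and the myeloid lysozyme Lyz2 between 11.32 and 12.82. The Vav1 probe set read 9.99 to 10.30 in oncogenic Vav1 spleens, against 9.63 and 9.83 in GFP spleens, and 10.17 and 9.27 in oncogenic Vav1 lymph nodes, against 9.52 and 9.69 in GFP lymph nodes. Its change did not pass the threshold in spleen (0.45, SE 0.21, adjusted p = 0.14) or lymph node (0.11, SE 0.24, adjusted p = 0.80), and oncogenic Vav1 lymph node replicate 2 lay below both GFP arrays. Whether this probe set reads the introduced form is not given in the sources used here, so it does not check the labels.

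Glycolysis converts glucose to pyruvate in the cytosol. Hexokinases trap glucose as its phosphate, the phosphofructokinases commit it to the pathway, aldolase splits the sugar, and the lower enzymes recover ATP and produce pyruvate. Lactate dehydrogenase regenerates the NAD+ that Gapdh consumes, and monocarboxylate transporters carry lactate out of the cell. Resting lymphocytes use little glucose, whereas activated and dividing T cells raise glucose uptake and lactate output, and the transcription factors HIF-1 and Myc are known to induce many of these genes. Red cells, neutrophils, fat cells and muscle each use characteristic isozymes of the pathway.

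In the spleen, 12 of the 28 genes rose with oncogenic Vav1 and none fell at an adjusted p under 0.05 (limma, Benjamini-Hochberg over all genes tested), where 17.1% of all genes tested rose and 9.77% fell. The genes that rose were Hk2, Pfkl, Pfkp, Aldoa, Tpi1, Gapdh, Pgk1, Pgam1, Pkm, Ldha, Slc16a3 and the regulator Hif1a, whereas no glucose transporter and no tested enolase passed. Their changes lay between 1.09 and 2.05 on the log2 scale. After a further quantile normalization of the arrays 12 rose and 2 fell, the 2 being Pfkfb4 (-0.42, adjusted p = 0.034) and Pdk1 (-0.44, adjusted p = 0.021). The shares of all genes above belong to the fit as reported, and those after this normalization are not given here. The median change of the 28 genes was 0.69, beside 0.0019 for all genes tested. All arrays of oncogenic Vav1 lay above both GFP arrays for 17 genes, and below both for 2, where the background is 30.3% above and 25.2% below. In bulk RNA such as this, fewer cells of a type and less RNA per cell cannot be told apart.

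Lymph nodes gave 2 genes higher and 4 lower in oncogenic Vav1 arrays than in GFP arrays at an adjusted p under 0.05 (limma), where 7.87% of all genes tested rose and 10.8% fell. Hk1 and Slc16a3 rose, and Ldhb, Pfkfb3, Pdk1 and Eno3 fell. The median change was 0.13, beside -0.015 for all genes tested. The arrays of the groups did not overlap for 8 genes above and 7 below, where the background is 24.2% above and 28.8% below. Of the genes that rose in spleen, Slc16a3 was the member that also rose in lymph node.

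**Figure D1:**
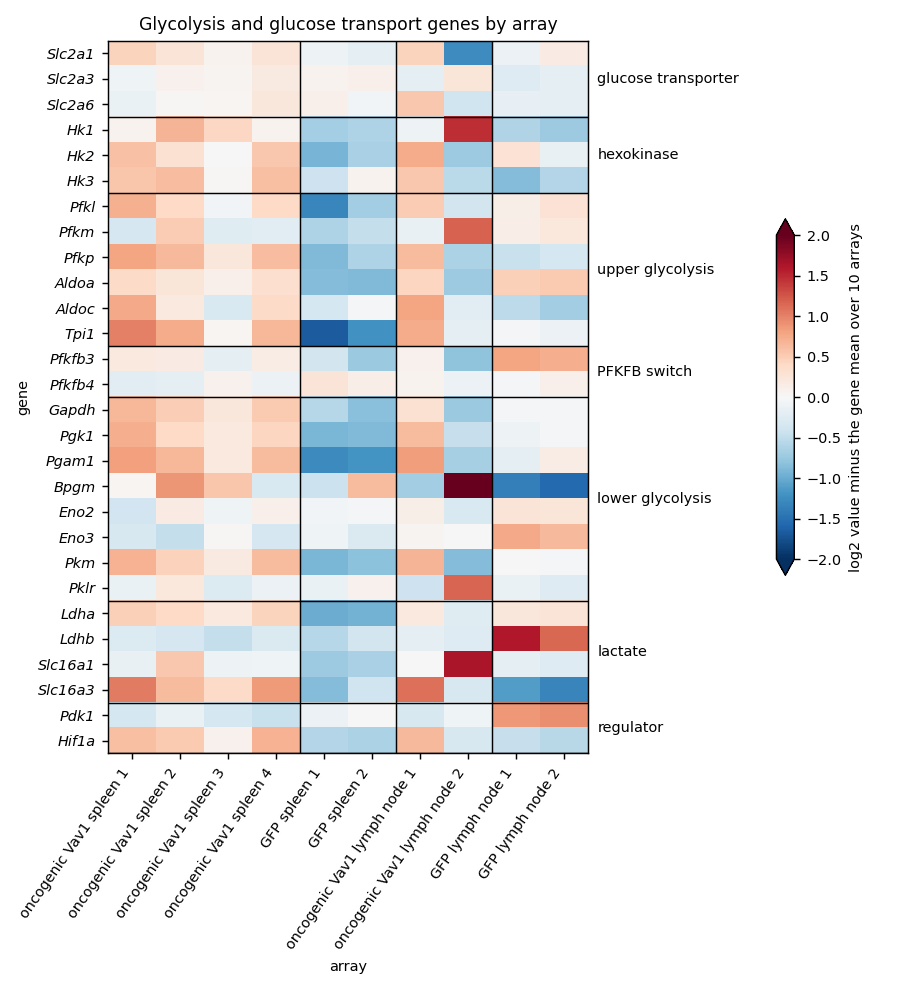
Values of the 28 genes on the 10 arrays, as the log2 value minus the mean of the gene over all arrays (colour, log2 units), grouped by role from top to bottom and by construct and tissue from left to right. The GFP spleen arrays are low for Pfkl, Tpi1, Pgam1 and Pkm, GFP lymph node arrays are high for Ldhb, Pdk1 and Pfkfb3, and oncogenic Vav1 lymph node replicate 2 stands apart with high Bpgm, Hk1, Pfkm, Pklr and Slc16a1 and low Slc2a1.

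**Figure D2:**
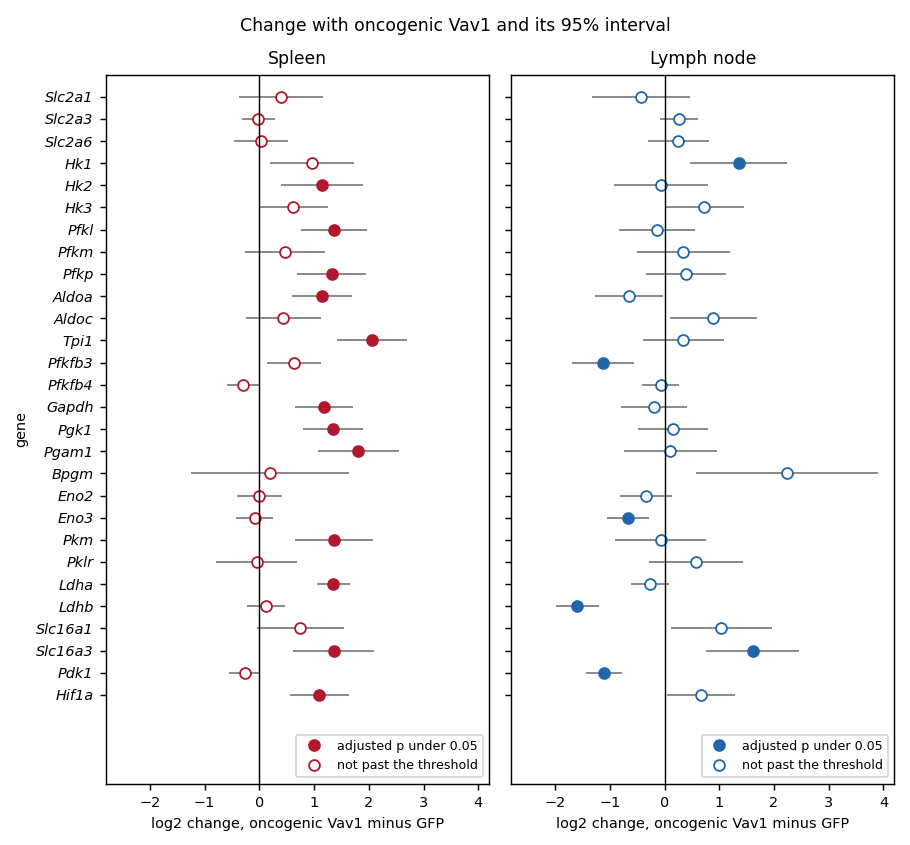
Change with oncogenic Vav1 relative to GFP (horizontal axis, log2) for each gene (vertical axis) in spleen, left, and lymph node, right, with the 95% interval of the limma fit as a line. Filled circles have an adjusted p under 0.05: 12 genes to the right of 0 in spleen, and in lymph node 2 to the right and 4 to the left.

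Glucose transporters were the step with no gene past the threshold in either tissue. Slc2a1, which encodes GLUT1, the main glucose carrier of activated T cells, read 9.91, 9.73, 9.54 and 9.73 on oncogenic Vav1 spleen arrays 1 to 4, against 9.37 and 9.29 on GFP spleen arrays 1 and 2. Every oncogenic Vav1 spleen array was above both GFP arrays, and the change of 0.40 (SE 0.35) had an adjusted p of 0.41. It passed when either oncogenic Vav1 lymph node array, both of which enter through the shared spread, was left out (adjusted p of 0.017 without replicate 1 and 0.015 without replicate 2). Lymph node values were 9.91 and 8.21 with oncogenic Vav1, against 9.35 and 9.64 with GFP, so that the oncogenic Vav1 arrays lay on either side of both GFP arrays. Slc2a3, which encodes the high-affinity carrier GLUT3, stayed between 7.88 and 8.14 on oncogenic Vav1 spleen arrays, against 8.02 and 8.05 on GFP spleen arrays, and its change of -0.02 had a 95% interval from -0.33 to 0.29. Slc2a6, a transporter of the lysosome membrane, changed by 0.03 (SE 0.22) in spleen and 0.26 (SE 0.25) in lymph node.

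Of the hexokinases, Hk2 passed the threshold in spleen and Hk1 in lymph node. The difference between the tissues did not pass for either (limma interaction, adjusted p = 0.19 for Hk2 and 0.66 for Hk1). Hk2, the inducible mitochondria-binding enzyme of activated lymphocytes, read 8.09, 7.81, 7.52 and 8.04 with oncogenic Vav1 in spleen, against 6.58 and 6.87 with GFP. The change was 1.14 (SE 0.34, adjusted p = 0.031), and the groups did not overlap. The call was lost without either GFP spleen array (adjusted p of 0.20 without replicate 1 and 0.097 without replicate 2), without oncogenic Vav1 spleen replicate 1, 2 or 4 (0.076, 0.060 and 0.067) and with a replicate block (0.052), while the change stayed between 1.00 and 1.29. Lymph node values of Hk2 were 8.25 and 6.78 with oncogenic Vav1, against 7.79 and 7.36 with GFP, and again the oncogenic Vav1 arrays enclosed the GFP arrays. Hk1, the housekeeping hexokinase and the main form of red cells, read 9.58 and 11.16 with oncogenic Vav1 in lymph node, against 9.08 and 8.95 with GFP. The change was 1.35 (SE 0.40, adjusted p = 0.038), and replicate 1 alone stood at 0.56 above GFP (adjusted p = 0.079). The call was also lost without GFP lymph node replicate 1 or 2 (adjusted p = 0.14 and 0.18), on the lymph node arrays alone (0.26), and without either GFP spleen array or oncogenic Vav1 spleen replicate 1, 3 or 4 (0.056 to 0.063), which enter through the shared spread. In those refits the change was 1.29 to 1.42. In spleen Hk1 read 9.75, 10.37, 10.10 and 9.75, against 9.01 and 9.06 in GFP arrays, with a change of 0.96 (SE 0.34) at an adjusted p of 0.062. The groups did not overlap, and this spleen change passed on the spleen arrays alone (limma, adjusted p = 0.00092) and with array weights (0.0038). Hk3, a hexokinase of myeloid cells, changed by 0.62 (SE 0.28, adjusted p = 0.13) in spleen and 0.73 (SE 0.33, adjusted p = 0.16) in lymph node. Its spleen change also passed on the spleen arrays alone (limma, adjusted p = 0.025) and with array weights (0.017), with overlapping groups.

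In spleen, the upper enzymes held the member with the largest change. Tpi1, triose phosphate isomerase, read 10.69, 10.43, 9.73 and 10.35 on oncogenic Vav1 spleen arrays, against 8.02 and 8.47 on GFP spleen arrays. Its spleen change was 2.05 (SE 0.29, adjusted p = 0.0012), a 4.15-fold difference on the deposited scale. The liver-type phosphofructokinase Pfkl read 9.22, 8.91, 8.45 and 8.90, against 7.20 and 7.81 with GFP, and changed by 1.37 (SE 0.27, adjusted p = 0.0054). The platelet-type Pfkp read 10.25, 10.10, 9.68 and 10.08, against 8.58 and 8.84 with GFP, a change of 1.32 (SE 0.29, adjusted p = 0.0081). The aldolase Aldoa read 11.23, 11.10, 10.95 and 11.18, against 9.98 and 9.96 with GFP, a change of 1.15 (SE 0.24, adjusted p = 0.0076). None of these genes had overlapping groups in spleen. Their muscle- and brain-type relatives Pfkm (0.47, SE 0.33, adjusted p = 0.31) and Aldoc (0.44, SE 0.31, adjusted p = 0.31) did not pass the threshold.

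None of the 6 upper enzymes passed in lymph node. Tpi1 read 10.42 and 9.49 with oncogenic Vav1, against 9.67 and 9.56 with GFP. Aldoa read 11.28 and 10.11, against 11.32 and 11.38 with GFP, so both oncogenic Vav1 arrays were lower, by very different amounts. Pfkm ran the other way between the replicates, with 6.82 and 8.15 in oncogenic Vav1 arrays, against 7.10 and 7.18 in GFP arrays.

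Pfkfb3 and Pfkfb4 make and remove a fructose bisphosphate that activates phosphofructokinase. Pfkfb3, the form with the higher kinase activity, read 9.69, 9.67, 9.30 and 9.65 with oncogenic Vav1 in spleen, against 9.13 and 8.76 with GFP, a change of 0.63 (SE 0.22) at an adjusted p of 0.059. That change passed on the spleen arrays alone (limma, adjusted p = 0.0051) and with array weights (0.0029). In lymph node it read 9.59 and 8.70, against 10.30 and 10.23 with GFP, and fell by 1.12 (SE 0.26, adjusted p = 0.013). The change thus had opposite signs in the tissues, and the GFP lymph node arrays were the highest of all 10. Without GFP lymph node replicate 1 or replicate 2 the lymph node fall had an adjusted p of 0.089 or 0.074. Pfkfb4 changed by -0.30 (SE 0.13, adjusted p = 0.11) in spleen and -0.07 (SE 0.15, adjusted p = 0.81) in lymph node.

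The lower enzymes Gapdh, Pgk1, Pgam1 and Pkm rose in spleen. Pgam1, phosphoglycerate mutase, read 9.92, 9.77, 9.31 and 9.74 with oncogenic Vav1, against 7.84 and 7.91 with GFP, a change of 1.81 (SE 0.33, adjusted p = 0.0038). Pkm, pyruvate kinase of muscle and dividing cells, read 11.70, 11.47, 11.18 and 11.63, against 10.08 and 10.19 with GFP, and changed by 1.36 (SE 0.32, adjusted p = 0.013). Its probe set does not separate the splice forms PKM1 and PKM2 in the deposited values. Pgk1, phosphoglycerate kinase, read 10.44, 10.12, 9.90 and 10.15, against 8.79 and 8.82 with GFP (change 1.35, SE 0.25, adjusted p = 0.0041). Gapdh, often used as a reference gene for RNA amount, read 12.46, 12.29, 12.02 and 12.32, against 11.23 and 10.96 with GFP, and changed by 1.18 (SE 0.24, adjusted p = 0.0059). The groups did not overlap for any of these 4 genes.

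The other lower enzymes are tissue forms, and none of them passed in spleen. Eno3, the muscle enolase, read 6.82, 6.67, 7.16 and 6.81 with oncogenic Vav1, against 7.05 and 6.86 with GFP. In lymph node it read 7.20 and 7.16, against 7.90 and 7.79 with GFP, and fell by 0.67 (SE 0.17, adjusted p = 0.024), a call that was lost without either GFP lymph node array (adjusted p = 0.15 and 0.089). Eno2, the neuronal enolase, was above the 40th percentile of its array on 3 of the 10 arrays and is near background. Pklr, pyruvate kinase of liver and red cells, changed by -0.05 (SE 0.34) in spleen and read 6.83 and 8.41 in lymph node with oncogenic Vav1, against 7.11 and 6.98 with GFP.

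Bpgm, bisphosphoglycerate mutase, makes the molecule that lowers the oxygen affinity of haemoglobin in red cells. It read 7.54, 8.39, 8.06 and 7.19 with oncogenic Vav1 in spleen, against 7.08 and 8.14 with GFP, and the groups overlapped. In lymph node it read 6.81 and 9.74, against 6.13 and 5.95 with GFP, a change of 2.24 (SE 0.75) at an adjusted p of 0.065. With replicate 1 alone the change was 0.77 (adjusted p = 0.24), and with replicate 2 alone 3.70 (adjusted p = 3.1e-05). In a refit with a single array in a group, that array is assumed to vary like the other groups, and the spread between the oncogenic Vav1 lymph node arrays no longer counts.

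Of the lactate dehydrogenase chains, Ldha passed the threshold in spleen and Ldhb in lymph node. Ldha, the lactate dehydrogenase chain of glycolytic tissue, read 11.45, 11.37, 11.16 and 11.42 with oncogenic Vav1 in spleen, against 9.97 and 10.03 with GFP. It rose by 1.35 (SE 0.14, adjusted p = 0.0003), the smallest p of the 28 genes in spleen. Ldhb, the chain of oxidative tissue, read 6.19, 6.13, 5.98 and 6.18, against 5.89 and 6.10 with GFP, with overlapping groups and a change of 0.12 (SE 0.15, adjusted p = 0.57). In lymph node Ldha read 11.16 and 10.72, against 11.19 and 11.22 with GFP, a change of -0.26 (SE 0.16, adjusted p = 0.29). Ldhb read 6.27 and 6.21 there, against 8.06 and 7.61 with GFP, and fell by 1.60 (SE 0.18, adjusted p = 0.0002). The fall of Ldhb was nearly the same in both oncogenic Vav1 lymph node arrays, at -1.56 and -1.63 relative to the GFP mean. Outside the GFP lymph nodes, however, Ldhb lay below the median of all probe sets on its array and is near background. Its lowest value was at the 41st percentile. Whether that level limits the spleen change of Ldhb and the match of the 2 falls was not tested.

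The lactate exporter Slc16a3, which encodes MCT4, was the member that rose in each tissue. It read 8.54, 8.13, 7.89 and 8.36 with oncogenic Vav1 in spleen, against 6.64 and 7.11 with GFP (change 1.36, SE 0.33, adjusted p = 0.014). Lymph node values were 8.61 and 7.19 with oncogenic Vav1, against 6.39 and 6.18 with GFP (change 1.61, SE 0.38, adjusted p = 0.016). No array of one construct reached those of the other in the same tissue. With the median of the intronic control probe sets as a covariate, the spleen change was 0.10 (limma, adjusted p = 0.85). On the lymph node arrays alone the lymph node change had an adjusted p of 0.17 (limma). The spleen call was lost without GFP spleen replicate 1 (adjusted p = 0.15), and the lymph node call without GFP lymph node replicate 1 (adjusted p = 0.074) or replicate 2 (adjusted p = 0.11). Slc16a1, which encodes the bidirectional carrier MCT1, read 8.76, 9.44, 8.81 and 8.83 in oncogenic Vav1 spleens, against 8.18 and 8.25 in GFP spleens, and 8.89 and 10.54 in oncogenic Vav1 lymph nodes, against 8.71 and 8.65 in GFP lymph nodes. All its oncogenic Vav1 arrays were higher than the GFP arrays of the same tissue, with an adjusted p of 0.15 in spleen and 0.12 in lymph node. The spleen change of Slc16a1 passed on the spleen arrays alone (limma, adjusted p = 0.0068) and with array weights (0.017).

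The promoters of 4 genes are shown because these genes behaved differently from each other: Slc16a3 rose in each tissue, Ldha and Tpi1 rose in spleen, and Ldhb fell in lymph node. Each sequence is the 250 bases before the first listed start in RefSeq (mouse build GRCm38.p6), 5′ to 3′ on the strand of the gene. Capitals mark ACGTG, the core of the hypoxia response element, and GCGTG, its other common core, on either strand. The run CACGTG, the E-box bound by Myc, reads the same on both strands and therefore holds ACGTG on each. Ldha lies on the plus strand (chr7:46845554-46845803), Slc16a3 on the plus strand (chr11:120948817-120949066), Tpi1 on the minus strand (chr6:124814159-124814408) and Ldhb on the minus strand (chr6:142507958-142508207).
Ldha: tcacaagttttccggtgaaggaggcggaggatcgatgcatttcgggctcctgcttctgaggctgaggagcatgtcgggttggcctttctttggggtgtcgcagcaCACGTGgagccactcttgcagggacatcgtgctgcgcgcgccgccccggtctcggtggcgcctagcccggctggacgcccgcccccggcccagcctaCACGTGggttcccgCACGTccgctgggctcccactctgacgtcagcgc
Slc16a3: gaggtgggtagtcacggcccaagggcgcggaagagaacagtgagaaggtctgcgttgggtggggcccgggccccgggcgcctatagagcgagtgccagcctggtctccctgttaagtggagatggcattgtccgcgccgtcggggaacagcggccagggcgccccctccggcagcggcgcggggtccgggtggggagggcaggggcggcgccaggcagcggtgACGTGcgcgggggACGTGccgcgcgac
Tpi1: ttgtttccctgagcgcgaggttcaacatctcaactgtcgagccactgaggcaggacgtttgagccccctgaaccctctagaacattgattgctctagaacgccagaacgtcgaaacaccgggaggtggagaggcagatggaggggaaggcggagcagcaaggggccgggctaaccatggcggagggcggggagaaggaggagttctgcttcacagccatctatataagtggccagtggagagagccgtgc
Ldhb: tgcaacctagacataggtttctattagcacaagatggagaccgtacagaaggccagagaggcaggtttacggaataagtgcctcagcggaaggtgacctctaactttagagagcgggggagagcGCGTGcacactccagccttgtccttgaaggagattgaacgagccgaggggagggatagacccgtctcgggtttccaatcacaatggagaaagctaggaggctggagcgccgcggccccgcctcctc

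The Ldha promoter held 5 matches, counting both strands, including both of its CACGTG runs. That of Slc16a3 held 2, that of Ldhb 1 match to GCGTG alone, and that of Tpi1 none. Of the 28 genes, 27 had a promoter in the table, all but Slc2a3. ACGTG occurred in 11 of the 27 (40.7%), beside 16.6% of all 27025 promoters of the table and 20.8% of the 10810 that belong to genes tested here. GCGTG occurred in 12 (44.4%), beside 28.2% of all and 42.5% of tested genes, and CACGTG in 4 (14.8%), beside 6.05% and 8.14%. ACGTG was found in 6 of the 12 genes that rose in spleen and in 5 of the 15 others. A match of letters is a description of the window and not a site of binding.

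Of the regulators, Hif1a rose in spleen and Pdk1 fell in lymph node. Hif1a, the oxygen-regulated subunit of the transcription factor HIF-1, read 10.80, 10.71, 10.28 and 10.89 with oncogenic Vav1 in spleen, against 9.60 and 9.55 with GFP, a change of 1.09 (SE 0.24, adjusted p = 0.009). In lymph node it read 10.85 and 9.87, against 9.73 and 9.64 with GFP, a change of 0.67 (SE 0.28, adjusted p = 0.13). HIF-1 is controlled mainly through the stability of the protein, which arrays do not measure. Pdk1, the kinase that shuts pyruvate out of the mitochondrial dehydrogenase, read 8.41 and 8.65 with oncogenic Vav1 in lymph node, against 9.59 and 9.67 with GFP. It fell by 1.10 (SE 0.15, adjusted p = 0.0006) there. In spleen Pdk1 read 8.38, 8.60, 8.39 and 8.28, against 8.62 and 8.74 with GFP, a change of -0.27 (SE 0.13, adjusted p = 0.15).

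**Figure D3:**
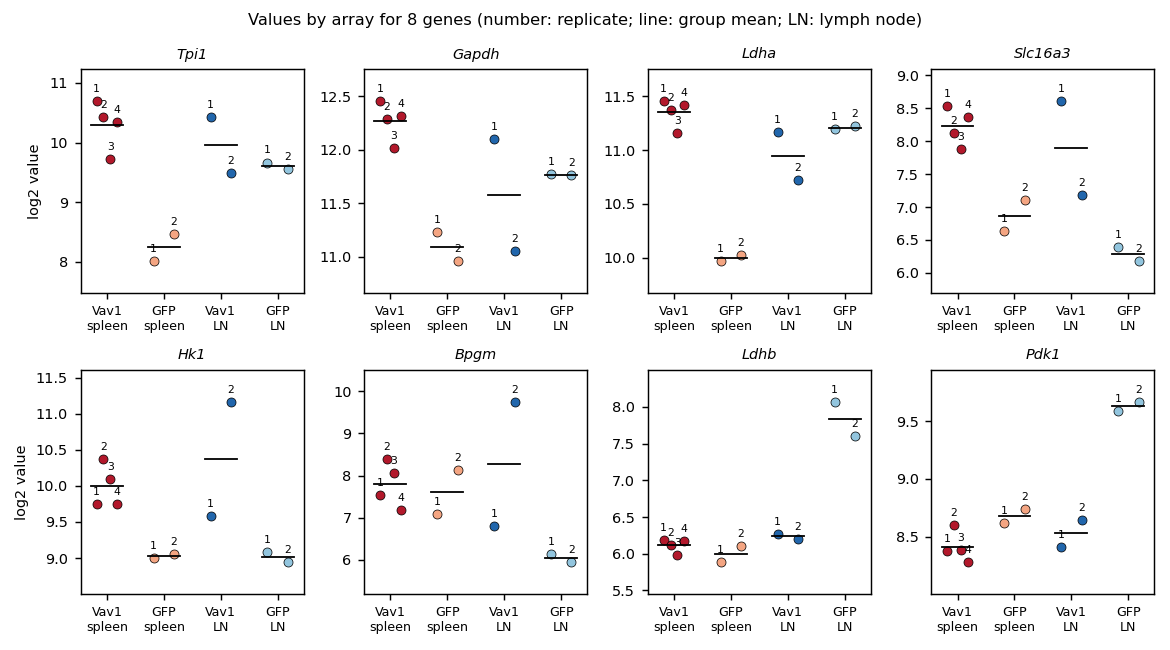
Log2 values (vertical axis) of 8 genes, chosen after their values were seen, on each array by construct and tissue (horizontal axis); numbers are replicates and lines are group means. Tpi1, Gapdh and Ldha separate the spleen groups, Slc16a3 separates the constructs in each tissue, Hk1 and Bpgm are highest in oncogenic Vav1 lymph node replicate 2, and Ldhb and Pdk1 are highest in the GFP lymph node arrays.

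With both tissues in a single model, 9 of the 28 genes rose and 1 fell, where 17.4% of all genes tested rose and 14.3% fell. Slc16a3 (1.47, SE 0.24), Tpi1 (1.28, SE 0.30), Hk1 (1.18, SE 0.23), Pgam1 (1.01, SE 0.32), Slc16a1 (0.91, SE 0.22), Pfkp (0.89, SE 0.24), Hif1a (0.88, SE 0.19), Pgk1 (0.79, SE 0.23) and Hk3 (0.66, SE 0.21) rose, and Pdk1 fell (-0.62, SE 0.13). Adjusted p lay between 0.0012 for Slc16a3 and 0.035 for Hk3. Ldha, the gene with the smallest p in spleen, did not pass over both tissues (0.62, SE 0.22, adjusted p = 0.055). With both arrays of the GFP animal that gave both tissues left out, none of the 28 passed in this model (limma), where 6.98% of all genes tested passed. Slc16a3, Hk1, Hif1a and Pdk1 passed under each omission of a single array, and each of the other 6 lost its call under at least 1.

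The spleen rises were measured against 2 GFP arrays. Without GFP spleen replicate 1, 5 members were called, where 8.13% of all genes tested were called in either direction, and without replicate 2, 7, where 13.8% were. Tpi1, Pgk1, Pgam1 and Ldha were called under each omission of a single array. Without replicate 1, Pfkl (adjusted p = 0.084), Pfkp (0.091) and Slc16a3 were lost, without replicate 2 Gapdh (0.062), and without either one Aldoa (0.069 and 0.056), Pkm (0.10 and 0.068), Hif1a (0.072 and 0.064) and Hk2. With both arrays of the GFP animal that gave both tissues left out, Ldha alone was called, where 2.22% of all genes tested were. The GFP spleen arrays also had the highest medians of the intronic control probe sets, 5.87 and 5.69, beside 5.43 to 5.55 in oncogenic Vav1 spleen arrays. With this median as a covariate 2 members were called, where 6.84% of all genes tested were: Ldha (0.94, adjusted p = 0.015) and Hk1 (2.07, adjusted p = 0.020). The other genes that had risen did not pass. Hk2 stood at -0.04, and the rest had smaller positive changes, from 0.10 for Slc16a3 and 0.15 for Pkm to 0.99 for Tpi1. An alternative added after seeing the data fitted the covariate on the 6 spleen arrays alone. It left no member called by limma, where 0.844% of all genes tested were, and Ldha stood at 1.01 (adjusted p = 0.066). At an unadjusted p under 0.05 there were 7 members, and no share of all genes is given for that threshold. Intronic signal and construct move together in these 6 arrays.

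The oncogenic Vav1 lymph node arrays disagreed with each other for many members. Replicate 1 lay above both GFP arrays and replicate 2 below both for 10 of the 28 genes (35.7%), beside 15.6% of all genes tested. They were Slc2a1, Slc2a6, Hk2, Pfkl, Pfkp, Tpi1, Gapdh, Pgk1, Pgam1 and Pkm, all but the first 2 of them among the genes that rose in spleen. Relative to the GFP mean, the arrays stood at 0.70 and -0.84 for Pkm and at 0.85 and -0.65 for Pgam1. Pfkm and Pklr ran the opposite way, with replicate 1 below and replicate 2 above. Both replicates were above GFP for 8 genes and both below for 7.

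Among the 6 oncogenic Vav1 arrays, lymph node replicate 2 was the lowest for 16 of the 28 genes (57.1%, beside 36.0% of all genes tested) and the highest for 7 (25.0%, beside 27.8%). The 7 genes where it was highest were Bpgm, Hk1, Slc16a1, Pfkm, Pklr, Slc2a3 and Pdk1. Oncogenic Vav1 spleen replicate 3, from the same animal, was the lowest of its 4 for 18 genes (64.3%, beside 32.0%). Leaving out replicate 2 of the oncogenic Vav1 lymph node gave 13 members called, 9 up and 4 down, where 11% of all genes tested were up and 10.5% down. Leaving out replicate 1 gave 18, 7 up and 11 down, where 14.5% of all were up and 20.2% down. Pkm stood at 0.70 (adjusted p = 0.011) in the first case and at -0.84 (adjusted p = 0.0022) in the other, each time with 1 oncogenic Vav1 lymph node array whose spread is taken from the other groups, and at -0.07 (adjusted p = 0.92) with both.

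**Figure D4:**
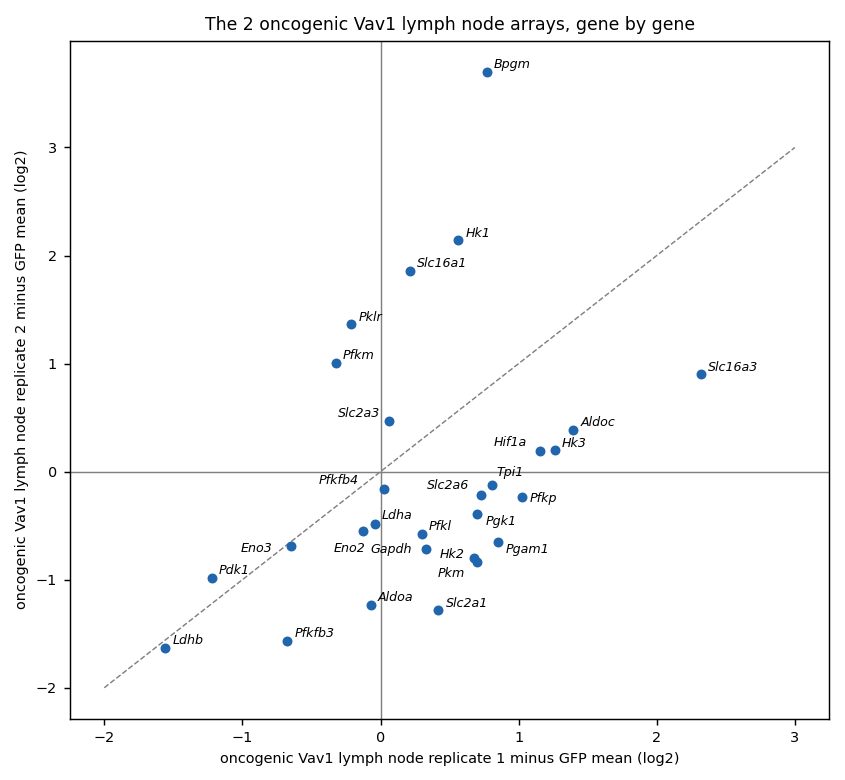
Each gene in oncogenic Vav1 lymph node replicate 1 (horizontal axis) and replicate 2 (vertical axis), as the log2 value minus the mean of the 2 GFP lymph node arrays; the dashed line marks equal differences. Ldhb and Pdk1 lie near the line, the genes of the lower right quadrant are above GFP in replicate 1 and below it in replicate 2, and Bpgm is 0.77 and 3.70 above GFP.

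The construct change differed between tissues for 5 of the 28 genes, all more negative in lymph node, where 0.933% of all genes tested had a more positive and 7.11% a more negative change in lymph node. The difference, lymph node change minus spleen change, was -1.81 for Aldoa (SE 0.39, adjusted p = 0.018), -1.77 for Pfkfb3 (SE 0.36, adjusted p = 0.013), -1.73 for Ldhb (SE 0.25, adjusted p = 0.0021), -1.62 for Ldha (SE 0.22, adjusted p = 0.0017) and -0.82 for Pdk1 (SE 0.20, adjusted p = 0.030). The median difference of the 28 genes was -0.70, beside -0.011 for all genes tested. Tpi1 (-1.73, SE 0.47) and Gapdh (-1.39, SE 0.38) had an adjusted p of 0.051 each. With the intronic covariate, Aldoa (-0.92, adjusted p = 0.063) and Pfkfb3 (-1.05, adjusted p = 0.10) were not called (limma), while Ldha and Ldhb were. That fit called 7.61% of all genes tested. The differences for Ldha and Ldhb were called under each omission of a single array, and without both arrays of the GFP animal that gave both tissues Ldhb was called and Ldha was not (-1.59, adjusted p = 0.066). Aldoa, Pfkfb3 and Pdk1 were not called without GFP spleen replicate 2 or without either GFP lymph node array (adjusted p between 0.059 and 0.12), Aldoa and Pdk1 also not without GFP spleen replicate 1 (0.069 and 0.11), and Pdk1 also not without oncogenic Vav1 spleen replicate 1 or 3 (0.064 and 0.068).

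The tissues were also compared within each construct, on the same arrays. In GFP animals, 8 members were higher in lymph node than in spleen and none was lower, where 11.6% of all genes tested were higher and 4.41% lower. They were Ldhb (1.85, SE 0.19), Aldoa (1.38, SE 0.29), Tpi1 (1.36, SE 0.36), Pfkfb3 (1.33, SE 0.27), Ldha (1.21, SE 0.17), Pfkl (1.19, SE 0.33), Pdk1 (0.95, SE 0.15) and Eno3 (0.90, SE 0.18). Of these, Ldhb, Ldha and Pdk1 were called under each omission of a single array. Aldoa (adjusted p between 0.057 and 0.073) and Tpi1 (0.063 to 0.16) were lost without any one of the 4 GFP arrays, Pfkl without GFP spleen replicate 1, either GFP lymph node array or oncogenic Vav1 spleen replicate 4 (0.054 to 0.20), and Pfkfb3 and Eno3 without GFP spleen replicate 2 or GFP lymph node replicate 1 (0.058 to 0.077). With the intronic covariate the difference was 0.02 for Tpi1, -0.0078 for Pfkl, 0.37 for Aldoa and 0.50 for Pfkfb3, none of them called. Some members not called as reported were called in that fit, among them Slc2a1, Pfkp and Hif1a lower and Hk1 higher in lymph node. It called 21.3% of all genes tested, beside 16% as reported. With both arrays of the GFP animal that gave both tissues left out, Ldhb alone was called, where 3.64% of all genes tested were. Lymph node arrays were above both spleen arrays for 18 of the 28 genes and below for 7, where the background is 34.2% and 33%. For Ldha and Aldoa, the GFP spleen arrays were the lowest of all 10, at 9.97 and 10.03 for Ldha and 9.98 and 9.96 for Aldoa, while the GFP lymph node arrays read 11.19 and 11.22 for Ldha and 11.32 and 11.38 for Aldoa. In oncogenic Vav1 animals, no member was called between lymph node and spleen (limma), where 0.0373% of all genes tested were higher and 0% lower. At an unadjusted p under 0.05 there were 2 members, and no share of all genes is given for that threshold. The median difference of the members was 0.57 in GFP animals and -0.32 in oncogenic Vav1 animals. Ldhb was the single member whose oncogenic Vav1 lymph node arrays all lay above the spleen arrays, by little, and no member had all of them below, where the background is 7.33% above and 8.03% below. Without oncogenic Vav1 lymph node replicate 1, 19 members were called between the tissues of oncogenic Vav1 animals, 5 up and 14 down, where 11.7% of all genes tested were up and 16.8% down. Without replicate 2 no member was called (limma), where 0.269% of all genes tested were.

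Isozymes of a step were compared within each array, as the log2 difference of the pair. The difference of Ldha and Ldhb, on the probe sets of the array, was 5.26, 5.24, 5.18 and 5.24 in oncogenic Vav1 spleens, against 4.08 and 3.92 in GFP spleens. It was 4.89 and 4.52 in oncogenic Vav1 lymph nodes, against 3.13 and 3.62 in GFP lymph nodes. The constructs did not overlap in either tissue, and the difference was 1.33 larger with oncogenic Vav1. The exact permutation test over 7 animals, two-sided, gave p = 0.029, the smallest that its 35 assignments allow, and an adjusted p of 0.2 over 7 pairs. The shift lay mostly in Ldha in spleen and in Ldhb in lymph node, and Ldhb was near background outside the GFP lymph nodes. The other pairs moved by -0.35 to 0.65 with exact p from 0.14 to 0.94: Slc2a1 and Slc2a3, Hk2 and Hk1, Pfkp and Pfkl, Aldoa and Aldoc, Pfkfb3 and Pfkfb4, and Slc16a3 and Slc16a1.

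Pathways that branch from glycolysis or take up its product were read on the same arrays, where 17.1% of all genes tested rose and 9.77% fell in spleen, and 7.87% rose and 10.8% fell in lymph node. In spleen, 8 of 16 tested genes of the TCA cycle rose (50%) and none fell (median 0.37), among them the dehydrogenase subunits Idh3a (1.04, SE 0.16) and Sdhb (0.82, SE 0.13), and in lymph node none rose and 9 fell (56.2%, median -0.49), Idh2 by 1.37 (SE 0.19). Of the pentose phosphate pathway, which supplies ribose and NADPH, 3 of 8 rose in spleen (37.5%) and none fell, and 1 rose and 1 fell in lymph node (12.5% each, near the shares of all genes). Pgd (0.85, SE 0.16), Taldo1 (0.86, SE 0.18) and Prps1 (0.69, SE 0.16) were those that rose in spleen. Of the serine, glycine and hexosamine branches, 5 of 12 rose (41.7%) and 1 fell in spleen, and 2 rose and 2 fell in lymph node (16.7% each). Shmt2, the mitochondrial enzyme that passes serine carbon to folate, rose by 0.91 (SE 0.13) in spleen and 1.16 (SE 0.15) in lymph node, and Psat1, of serine synthesis, by 1.36 (SE 0.15) and 0.64 (SE 0.18).

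Pyruvate entry and its kinases changed unevenly. Of 11 tested genes 1 rose and 1 fell in spleen (9.09% each, not above the shares of all genes; median 0.23), and 1 rose and 6 fell (54.5%) in lymph node (median -0.84). Pdk3 rose by 1.38 (SE 0.16) in spleen, and Pdk4 fell in spleen (-1.08, SE 0.14) and in lymph node (-2.97, SE 0.16), where Pdk2 fell by 1.65 (SE 0.18). Of glycogen and gluconeogenesis genes, 4 of 12 rose (33.3%) and none fell in spleen, among them the phosphoglucomutase Pgm1 (1.44, SE 0.18), and none rose and 7 fell (58.3%) in lymph node, with Pck1 (-3.19, SE 0.20) and Pcx (-2.35, SE 0.34), both active in fat and liver. Of the other glucose and lactate transporters, 1 of 8 rose (12.5%, below the share of all genes) and 2 fell (25%) in spleen, and none rose and 4 fell (50%) in lymph node. Bsg, the partner protein of MCT1 and MCT4 at the membrane, rose by 1.15 (SE 0.25) in spleen, and Emb, the partner of MCT2, fell in spleen (-0.45, SE 0.14) and in lymph node (-1.60, SE 0.16). Of the other glycolytic isozymes, 1 of 8 rose in spleen, Adpgk (0.68, SE 0.18), also below that share, and 2 fell in lymph node (25%), Galm and Ldhd.

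Regulators of the pathway moved in both directions. Against the same shares of all genes, 2 of 7 HIF pathway regulators rose (28.6%) and 1 fell (14.3%) in spleen, where the prolyl hydroxylases Egln3 (1.23, SE 0.30) and Egln1 (0.48, SE 0.11) rose and Egln2 (-0.60, SE 0.12) fell, and none rose and 2 fell (28.6%) in lymph node. Of HIF target genes outside glycolysis, 5 of 16 rose (31.2%) and 1 fell in spleen, and 1 rose (6.25%) and 2 fell (12.5%) in lymph node, near the shares of all genes. Ero1a, of disulfide formation, rose by 0.72 (SE 0.13) and 0.77 (SE 0.15), while Bnip3, of mitophagy, fell by 1.26 (SE 0.18) in lymph node. Of 15 other regulators of glucose use, 5 rose (33.3%) and 2 fell (13.3%) in spleen, and 2 rose (13.3%) and 4 fell (26.7%) in lymph node. Myc rose by 0.50 (SE 0.12) in spleen, and Txnip, which holds back glucose uptake, fell by 1.19 (SE 0.19) in lymph node.

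Proliferation genes and markers of other cells also changed with the construct. All 19 tested proliferation genes rose in each tissue, with a mean log2 value of 8.88 to 9.55 in oncogenic Vav1 spleens, against 6.91 and 7.41 in GFP spleens, and 9.07 and 10.05 in oncogenic Vav1 lymph nodes, against 7.05 and 7.11 in GFP lymph nodes. Of 15 neutrophil markers, 13 rose in spleen (8.46 to 8.68, against 6.00 and 6.16) and 12 in lymph node (8.55 and 8.09, against 6.08 and 6.18). The B cell list fell in spleen for 9 of 10 markers (9.82 to 10.22, against 11.18 and 11.12), beside the members that rose there. Of 13 macrophage and monocyte markers, 9 rose and 1 fell in spleen (9.83 to 9.95, against 8.75 and 8.79). Of 7 plasma cell markers, 4 rose and 1 fell in spleen (means of 8.03 to 8.22, against 7.73 and 7.75) and 5 rose in lymph node (7.96 and 8.04, against 7.10 and 7.22). The part of these cells and of proliferation in the rises of the glycolytic genes was not tested.

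Erythroid markers were highest in oncogenic Vav1 lymph node replicate 2, the array with the highest Bpgm, Hk1, Slc16a1, Pfkm, Pklr and Slc2a3. Among the 6 oncogenic Vav1 arrays, that array was the highest for 25.0% of members, not above the 27.8% of all genes tested. Their mean was 8.71 and 11.11 in oncogenic Vav1 lymph nodes, against 6.12 and 5.98 in GFP lymph nodes, and 10 of 10 rose. In spleen it was 8.57 to 10.15, against 7.33 and 8.55, and none of the 10 was called. Spleen replicate 2 of oncogenic Vav1, the highest of its group for Bpgm, Hk1, Pfkm and Slc16a1, held the highest erythroid mean of the spleens. Platelet and megakaryocyte markers had their highest mean on the same lymph node array, at 7.93 and 8.68 in oncogenic Vav1 lymph nodes, against 6.34 and 6.35 in GFP lymph nodes, where 5 of 6 rose. In spleen they read 7.78 to 8.30, against 7.85 and 7.85, and none of the 6 was called. T cell markers were lowest on that lymph node array, with means of 9.27 and 8.22 in oncogenic Vav1 lymph nodes, against 9.91 and 9.93 in GFP lymph nodes, and 6 of 11 fell. Their part in the member values was not tested.

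Fat markers stood high in GFP lymph nodes, the arrays with the highest Ldhb, Pdk1, Pfkfb3 and Eno3. Their mean was 7.14 and 8.19 in oncogenic Vav1 lymph nodes, against 10.89 and 10.96 in GFP lymph nodes, and 10 of 10 fell. Spleens read 5.09 to 5.24 with oncogenic Vav1, against 6.34 and 5.99 with GFP, and 4 of 10 fell. Of 9 stroma and vessel markers 8 fell in lymph node (7.49 and 7.61, against 9.17 and 9.25). The mean of 12 skeletal muscle markers lay between 5.62 and 5.92 on all arrays, with Actn3 (7.14) and Myoz1 (6.87) the highest over all arrays, and none of the 6 tested was called in spleen or lymph node. The part of fat and stroma in the lymph node falls was not tested.

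**Figure D5:**
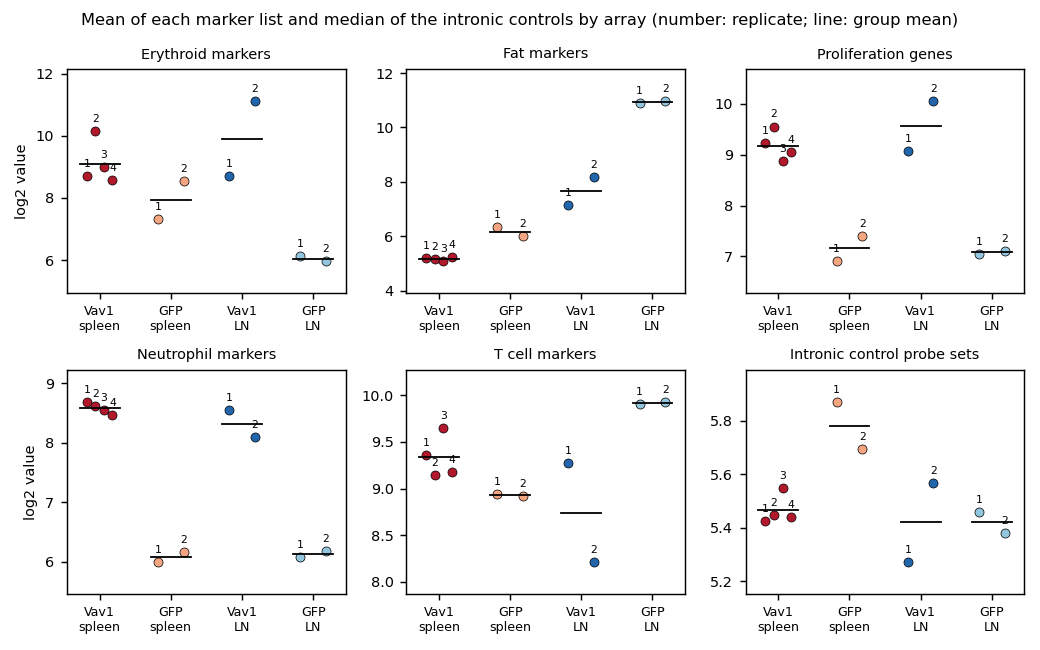
Mean log2 value of 5 marker lists and median of the intronic control probe sets (vertical axes) on each array by construct and tissue (horizontal axis); numbers are replicates and lines are group means. The proliferation and neutrophil lists separate the constructs, erythroid markers peak at 11.11 in oncogenic Vav1 lymph node replicate 2, fat markers reach 10.89 and 10.96 in GFP lymph nodes, and intronic controls are highest in GFP spleens.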

How the data were processed

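Per the submitters' processing notes, the authors made the deposited log2 values with RMA and R 3.6.3. Other steps and the annotation behind them are not given in the sources used here. These values ran from 2.42 to 13.9 and were used as deposited, so the number of arrays limits the precision. Probe sets were named through the platform annotation: of 29129, 19572 had 1 symbol, which gave 19505 genes. For the 55 genes with several probe sets, the highest mean over all arrays decided. Genes above the 40th percentile of their own array on at least 2 arrays were tested (13393 genes; 6112 were not).

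The tests are those of limma 3.58.1 (R 4.3.3; statmod 1.5.0 for blocks), two-sided, moderated by eBayes with a trend, and a change was called at a Benjamini-Hochberg adjusted p under 0.05. Construct changes within a tissue came from 4 group means over all 10 arrays (6 residual degrees of freedom). The model over both tissues held construct and tissue and took animals as random blocks (correlation -0.35, with 7 residual degrees of freedom). The difference between tissues, and lymph node minus spleen within a construct, came from the 4 group means with animals as random blocks (correlation -0.11). Replicate numbers were not read as pairs, since the descriptions give equal numbers to different animals. Nothing says how many cell preparations lie behind an array, so p-values measure the spread between these arrays.

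The members, lists and tests were chosen with earlier results of these data known. Any member may be named, up to 4 genes of each pathway list per comparison by smallest p, and up to 4 markers of each cell type by highest mean. Promoters are those of RefSeq (GRCm38.p6), matched by symbol. Alternatives covered filters, normalization, variance model, weights, blocks, probe set summary, an intronic covariate and omission of arrays or animals.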

Additional observations from a re-analysis of the deposited data

Results flagged for a closer look

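Among the 4 oncogenic Vav1 spleen arrays, 1 array lay far from the other 3 for 4 of the 28 genes. Hk3 read 7.71 and Pfkfb3 9.30 in replicate 3, both below the other arrays of the group. Pfkm read 7.48 and Slc16a1 9.44 in replicate 2, both above them. The test used, Dixon's gap over range, picks out about 1 in 20 groups by chance.

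The construct change differed between lymph node and spleen, by the interaction term of limma, for 5 genes. The lymph node change minus the spleen change was -1.81 for Aldoa (adjusted p = 0.018), -1.77 for Pfkfb3 (adjusted p = 0.013), -1.73 for Ldhb (adjusted p = 0.0021), -1.62 for Ldha (adjusted p = 0.0017) and -0.82 for Pdk1 (adjusted p = 0.030). Aldoa and Pfkfb3 were not called with the intronic covariate (limma, adjusted p = 0.063 and 0.10).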

How the results depend on the processing

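Limits first: groups hold 2 to 4 arrays, GFP spleen stands on 2, and the oncogenic Vav1 lymph node arrays differ from each other, so that both the number and the sign of calls in lymph node depend on which is used. Of 4222 recomputed changes and isozyme differences, 3750 kept their side of the threshold, 167 lost and 289 gained a call, and 16 turned their sign with a call in at least 1 setting. The 3750 include values that turned their sign without a call in either setting. The cause of these shifts was not tested.

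The numbers below count members called, of 28. The share of all genes tested that was called also moved with omissions and the intronic covariate, so a count alone does not set the members apart. For array weights, the own groups alone and the block settings, that share is not given here. Those counts therefore have no background beside them. That share rose in each comparison when ONCO3 or ONCO2 was left out, and dropped in each when CTL2 was. Each of these omissions leaves a group with a single array. With the intronic covariate the share was 6.84% for spleen (26.8% as reported), 23.5% for lymph node (18.7%) and 21.3% between GFP tissues (16%). Between oncogenic Vav1 tissues it was 0.702% (0.0373% as reported), and in the fit on the spleen arrays alone 0.844%. In spleen, with 12 as reported, the intronic covariate gave 2, its fit on the spleen arrays alone (added after seeing the data) 0, omission of both arrays of ONCO3 19 and of CTL2 1, and omission of single arrays 5 to 17. In lymph node, with 6 as reported, the arrays of the own groups alone gave 1, the intronic covariate 12, omission of ONCO3 17, of ONCO2 18 and of CTL2 2, and omission of single arrays 2 to 18. Over both tissues, with 10 as reported, array weights gave 16, omission of ONCO3 22 and of CTL2 0, and of single arrays 4 to 20. For the difference between tissues, with 5 as reported, array weights gave 10, exchanging the use of the animal block 8, omission of ONCO3 13, of ONCO2 20 and of CTL2 1, and of single arrays 2 to 19. For GFP lymph node against spleen, with 8 as reported, array weights gave 14, the own groups alone 18, the intronic covariate 13, omission of ONCO3 18, of ONCO2 17 and of CTL2 1, and of single arrays 3 to 16. For oncogenic Vav1 lymph node against spleen, with 0 as reported, the intronic covariate gave 1, omission of ONCO2 18, and of single arrays 0 to 19.

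The numbers in the titles do not pair the samples, as arrays of the same number come from different animals. With a replicate block, 5 members (4 of the 10, and Aldoc) were called over both tissues in place of 10, against 11 in spleen, 7 in lymph node, 6 for the difference between tissues, 8 between GFP tissues and 0 between oncogenic Vav1 tissues.

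Signs turned for these single changes with a call in at least 1 setting. Turns without a call are not listed. Among those, without oncogenic Vav1 lymph node replicate 2 alone, were the lymph node changes of Slc2a1 (0.42), Hk2 (0.68) and Gapdh (0.33). With the intronic covariate, Hk2 stood at -0.0363 in spleen (adjusted p = 0.96), and in GFP lymph node against spleen Slc2a1 at -1.31, Hk1 at 1.07, Pfkl at -0.00784, Pfkp at -1.01 and Hif1a at -0.93. Without both ONCO3 arrays, lymph node changes were 0.42 for Slc2a1, 0.68 for Hk2, 0.33 for Gapdh and 0.70 for Pkm. Leaving out oncogenic Vav1 lymph node replicate 1 turned Pgam1 in lymph node to -0.65. Leaving out replicate 2 turned Pkm in lymph node to 0.70 and Slc2a1 over both tissues to 0.37. The other omission kept the sign, at 0.85 for Pgam1, -0.84 for Pkm and -0.32 for Slc2a1. Pgam1 in lymph node was at -0.65 without both ONCO2 arrays, and Slc2a1 over both tissues at 0.38 without ONCO3. Pfkm was at 0.73 in the difference between tissues without ONCO2.

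The Ldha and Ldhb difference ran from 1.22 to 1.41 when single animals were left out and was 1.18 after quantile normalization.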
